A study of Mus musculus with 21 samples.

Results

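The transcriptomes of mouse CD8 T cells expanded for 5 days with 50 IU/mL of IL-2v, a mutant form of interleukin-2, were compared with those expanded for the same time with 50 IU/mL of IL-2. The comparison took every cell of the library titled for IL-2v at that day and dose (5079 cells) and every cell of the matching IL-2 library (3251 cells), 8330 of the 106458 cells in the series. Both libraries came from OT1 cells, which carry a transgenic T cell receptor for a peptide of ovalbumin. Naive CD8+ OT1 cells were stimulated on day 0 with beads bearing anti-CD3 and anti-CD28 and then grown with the cytokine. By that protocol both groups were activated by the same method and given a different cytokine. The series holds 21 single-cell RNA libraries, 1 per condition: naive cells, cells without cytokine at days 3 and 5, and cells with IL-2, IL-2v or IL-15 at 5 or 50 IU/mL at days 3, 5 and 10.

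The labels limit what the groups can stand for. The treatment entry of the IL-2v library names a mutant IL-2bg without spelling out the letters. The treatment entry of the IL-2 library names wild type interleukin-3 at 50 IU/mL, which goes against its title and the design text, and the title was followed here. The growth protocol describes culture, while the extraction protocol describes sorting of CD44+, CD45.1+ CD8+ cells from tumours. The age and sex of the mice, the number of mice pooled and the date of each culture are not given in the sources used here. With 1 library per condition no p-value could be given, and culture, library and cytokine cannot be told apart.

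IL-2 binds a receptor made of an alpha chain (Il2ra, also called CD25), a beta chain (Il2rb) and the common gamma chain (Il2rg), and the alpha chain raises the affinity of the complex. The beta and gamma chains signal through JAK kinases to STAT5, and through the PI3K and mTOR pathway to growth. In CD8 T cells these signals are known to drive division, nutrient uptake, glycolysis, ribosome production and the build-up of granzymes. IL-2 variants with altered affinity for single chains are used to change the balance of these outcomes.

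The values are counts of unique molecular identifiers (UMIs, tags that mark single captured RNA molecules), added up over each library and given as CPM, the count of a gene relative to an equal total for every library. The IL-2v library held 21520466 UMIs, with a median of 3924 UMIs and 1655 genes per cell. The IL-2 library held 10590998 UMIs, with a median of 3016 UMIs and 1271 genes per cell. It stood apart from the rest of the series: its total and its median depth were the lowest of the 21 libraries, whose totals reached 32648496. Mitochondrially encoded genes gave 2.91% of its UMIs, the lowest share of the 21 libraries, and 3.68% in the IL-2v library. Ribosomal protein genes, taken as symbols of Rpl or Rps followed by a digit, gave 29.7% with IL-2 and 25.9% with IL-2v. The IL-2v share was the lowest of the 21 libraries (the next was 27.5%), so that library also stood at an end of the series. With every symbol starting with Rpl or Rps the shares were 32.0% and 27.8%, again the lowest with IL-2v. The part that depth and these shares play in the differences below was not tested. Values from the cells of 2500 to 4000 UMIs in each library are given beside some results. The libraries shared 5 cell barcodes, 0.154% of the smaller library, within the 1 to 19 shared by any 2 of the 21 libraries. Both were T cells by their markers: Cd3d was seen in 95.3% of IL-2v cells and 93.0% of IL-2 cells, and all 7 T cell markers were present. Cd8a, which encodes a chain of the CD8 coreceptor, was at 265 CPM with IL-2v and 160 CPM with IL-2. Of the markers of other blood cells, Foxp3, Ms4a1, Lyz2, Csf1r, Adgre1, Cd14, Flt3, Ncr1 and Pf4 were at 0 in both. Others were seen: Zbtb7b of the CD4 T cell list in 10.3% and 8.55% of cells, Cd79b of the B cell list in 3.80% and 2.15%, and Klrb1c and Itgam in under 1%. Leaving out 653 IL-2v and 245 IL-2 cells, those with 2 or more UMIs of other lineages' markers or with Cd4 but no CD8 gene, gave 366 higher and 135 lower genes. The gamma delta T cell markers Trdc and Tcrg-C1 summed to 110 and 98.2 CPM, and Trdc was seen in 23.1% of IL-2v and 19.1% of IL-2 cells.

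A difference is given as log2(CPM + 1) with IL-2v minus that with IL-2. Because 1 CPM is added, low genes appear less changed than they were. Genes with at least 20 CPM in either library were compared, 6227 in all. Of these, 357 (5.73%) were at least 2-fold higher with IL-2v and 129 (2.07%) at least 2-fold lower. The median over all 6227 genes was 0.16 and 64.1% of them had a positive difference, and list medians below should be read against that value. When the libraries were scaled instead by trimmed means of M values (TMM), the median was -0.04 and the counts were 206 higher and 204 lower. The share of calls that were higher thus went from 73.5% to 50.2%. Intervals below are exact 95% intervals, which cover counting error only and say nothing of the spread between cultures. Where a pair of values is given for a gene, the IL-2v value comes first.

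**Figure D1:**
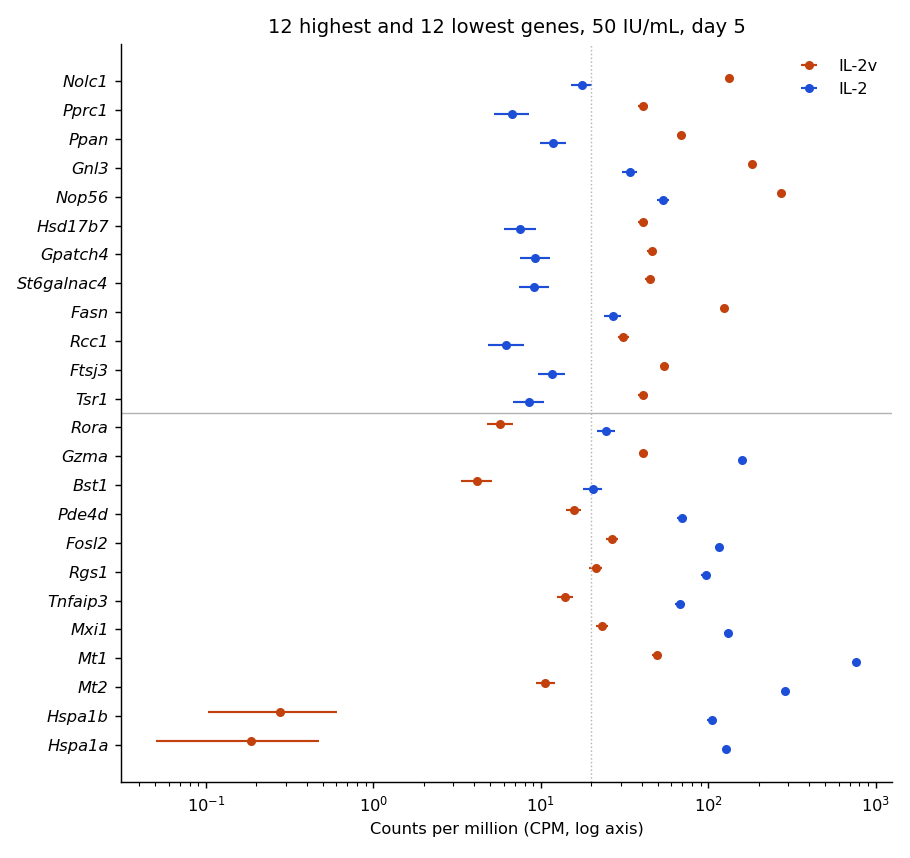
CPM of the 12 genes at each end of the ranking by log2 difference, on a log axis, with IL-2v in orange and IL-2 in blue; bars are exact Poisson 95% intervals and the dotted line marks 20 CPM. The genes were chosen by their difference, so the gaps between their intervals test nothing. Hspa1a and Hspa1b lie farthest apart.

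The 12 genes with the highest difference were Nolc1, Pprc1, Ppan, Gnl3, Nop56, Hsd17b7, Gpatch4, St6galnac4, Fasn, Rcc1, Ftsj3 and Tsr1. Nolc1, a nucleolar phosphoprotein that binds the small RNPs that modify ribosomal RNA, had 2869 UMIs or 133 CPM (128 to 138) with IL-2v. With IL-2 it had 186 UMIs or 17.6 CPM (15.1 to 20.3), a difference of 2.86 and a 7.59-fold higher level with IL-2v. The IL-2 library was the lowest of all 21 for Nolc1, since the other 19 ranged from 37.7 to 226 CPM. Gnl3, or nucleostemin, a nucleolar GTPase, gave 182 CPM (177 to 188) in the IL-2v library and 33.9 CPM (30.5 to 37.6) in the IL-2 library, a difference of 2.39. Nop56, a core protein of the box C/D particles that guide ribosomal RNA methylation, was at 271 CPM (264 to 278) and 53.7 CPM (49.4 to 58.3), a difference of 2.31. For Gnl3 and Nop56 too the IL-2 library was below every other library of the series, where the lowest values were 45.1 and 71.0 CPM. Ppan, needed for the large ribosomal subunit, was at 68.6 and 11.9 CPM, and Tsr1, needed for the small one, at 40.6 and 8.50 CPM. Pprc1, a coactivator related to PGC-1, was at 40.8 and 6.70 CPM, and Rcc1, the nucleotide exchange factor of Ran, at 31.1 and 6.23 CPM. In GENCODE vM21 (GRCm38), Nolc1 lies on chromosome 19 at 46075863 to 46085530, Gnl3 on chromosome 14 at 31012433 to 31019152 and Nop56 on chromosome 2 at 130274430 to 130279313. Exons of Gnl3, Nop56, Ppan, Pprc1, Rcc1 and Tsr1 overlap those of another gene there, as do those of Hspa1a, Mt2, Mxi1, Rora and Bst1 described further on, and whether the authors' counting used strand is not given in the sources used here. For Gnl3, Nop56, Ppan and Rcc1 at least 1 overlapping gene lies on the same strand (among them Snord19, Snord69, Snord57 and Snhg3), where stranded counting would not separate the reads.

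The list of MYC and ribosome biogenesis genes had the highest median of the 27 lists. Of its 26 members 23 were compared, and 22 had a positive difference, against 64.1% of all genes. At least 2-fold higher with IL-2v were 16, against 5.73% of all genes, and none was at least 2-fold lower. The median difference was 1.28, and 1.10 with 13 higher under TMM scaling. Dkc1, the pseudouridine synthase of H/ACA particles, was at 132 and 31.9 CPM, and Nop58, the partner of Nop56, at 246 and 87.1 CPM. Srm, the spermidine synthase that MYC induces, was at 66.5 and 15.0 CPM. Polr1a, the largest subunit of RNA polymerase I, was at 46.0 and 17.7 CPM, and the RNA helicase Ddx21 at 296 and 131 CPM, a difference of 1.17 that was 0.98 under TMM scaling. Not all members shared the difference. Myc itself stood at 158 CPM (153 to 163) in IL-2v cells and at 151 CPM (143 to 158) in IL-2 cells, and Npm1, an abundant nucleolar chaperone, was lower with IL-2v, at 1921 against 2638 CPM. Ncl, or nucleolin, was at 1497 and 929 CPM. Summed over the list, the level was 5984 CPM with IL-2v and 4571 CPM with IL-2, between 3068 CPM without cytokine and 7468 CPM with IL-2v on day 3. Npm1 and Ncl made up 1921 and 1497 CPM of the IL-2v sum, and 2638 and 929 CPM of the IL-2 sum. The ribosomal proteins themselves, by the symbol rule above, did not follow. Of 85 compared, 67 had a negative difference, against 35.9% of all genes, with a median of -0.19. Of the 85, 1 was at least 2-fold higher, against 5.73% of all genes.

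In single cells, each thinned to 2000 UMIs, 22.3% of IL-2v cells and 2.59% of IL-2 cells had a Nolc1 UMI (37.5% and 4.92% without thinning). The shares were 37.8% and 9.14% for Nop56, and 29.5% and 6.09% for Gnl3. Of cells without cytokine, 8.91% had a Nolc1 UMI, 14.1% a Nop56 UMI and 11.6% a Gnl3 UMI, each above the share with IL-2. For Pprc1 the IL-2 share (1.37%) was above that without cytokine (1.13%). A cell held a median of 11 UMIs of the list with IL-2v, 9 with IL-2, 9 with 50 IU/mL IL-15 and 5 without cytokine. From the 25th to the 75th percentile a cell held 9 to 15 UMIs with IL-2v and 7 to 11 with IL-2, so the distributions overlapped over much of their range. These sums weigh the abundant Npm1 and Ncl most, and their order need not be that of single members such as Nolc1. The difference was also present in cells lacking any UMI of the division genes Mki67 and Top2a: the summed level was 5717 CPM with IL-2v and 4558 CPM with IL-2 in those, and 6078 and 4581 CPM in cells with such a UMI.

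**Figure D2:**
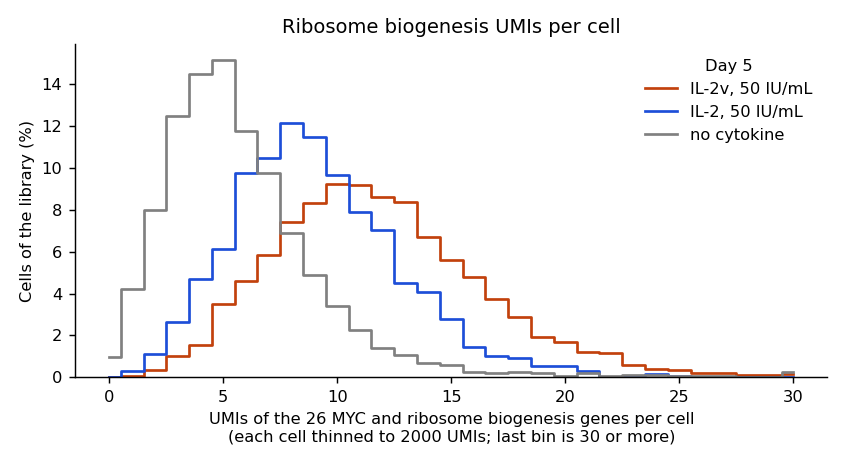
Percent of cells (vertical axis) by the number of UMIs of the 26 MYC and ribosome biogenesis genes in a cell (horizontal axis), each cell thinned to 2000 UMIs, for IL-2v and IL-2 at 50 IU/mL and for cells without cytokine at day 5. The IL-2 curve (median 9) lies between that without cytokine (median 5) and that with IL-2v (median 11), with wide overlap. The abundant Npm1 and Ncl weigh heavily in these sums.

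The sterol and fatty acid synthesis list had the next highest median, 0.94, or 0.76 under TMM scaling. Of 30 members compared, 30 had a positive difference (28 under TMM scaling), against 64.1% of all genes. At least 2-fold higher were 14 (11 under TMM scaling), against 5.73% of all genes. Fasn, the fatty acid synthase, reached 124 CPM (120 to 129) in IL-2v cells against 27.0 CPM (24.0 to 30.3) in IL-2 cells, a difference of 2.16. Hsd17b7, a 3-ketosteroid reductase of the cholesterol pathway, was at 40.7 and 7.55 CPM. Sqle and Cyp51, enzymes of cholesterol synthesis, were at 96.5 and 37.2 CPM and at 192 and 77.9 CPM. Acaca, which makes malonyl-CoA for fatty acid synthesis, was at 32.0 and 13.3 CPM, with a difference of 0.92 in cells lacking both Mki67 and Top2a UMIs. The regulators of the pathway differed less: Srebf2 was at 199 and 151 CPM and Srebf1 at 54.6 and 49.2 CPM. The summed level of 3868 CPM with IL-2v was the highest of the 21 libraries. That with IL-2 was 2314 CPM, 2071 CPM with 50 IU/mL IL-15 on the same day, and 442 CPM without cytokine. The difference was present in cells with and without a Mki67 or Top2a UMI, at 4220 against 2599 CPM and 2871 against 1917 CPM.

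Amino acid transporters and enzymes of folate metabolism were among the higher genes. Of 16 compared, 5 were at least 2-fold higher (5.73% of all genes) and none lower (2.07%), with a median of 0.71. Under TMM scaling 5 of 16 were still higher, with a median of 0.53. In cells of 2500 to 4000 UMIs it was 3 of 14, with a median of 0.46. Slc7a5, the light chain of the leucine transporter, reached 235 CPM (228 to 241) in IL-2v cells against 76.2 CPM (71.0 to 81.6) in IL-2 cells. A UMI of it was found in 33.0% and 12.4% of thinned cells. Its heavy chain Slc3a2 was at 145 and 173 CPM and did not share the difference. Slc7a1, a transporter of arginine and lysine, was at 107 and 33.1 CPM, and Slc1a5, a glutamine transporter, at 151 and 60.1 CPM. Shmt1 and Mthfd1, enzymes of folate metabolism in the cytosol, were at 21.9 and 4.72, and 24.0 and 6.89 CPM. Of genes picked after their values were seen, Mat2a, which makes S-adenosylmethionine, was at 155 and 35.6 CPM, and Gart, an enzyme of purine synthesis, at 52.0 and 12.3 CPM. St6galnac4, a sialyltransferase among the 12 highest genes, was at 44.6 and 9.16 CPM.

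Of 44 replication and S phase genes compared, 44 had a positive difference (42 under TMM scaling), against 64.1% of all genes. At least 2-fold higher were 11 (7 under TMM scaling), against 5.73% of all genes, and the median was 0.76, or 0.58 under TMM scaling. Mcm2, a subunit of the replicative helicase, was at 79.4 and 29.6 CPM, and its loader Cdc6 at 28.3 and 10.1 CPM. Rrm2, a subunit of ribonucleotide reductase, was at 105 and 39.9 CPM (a difference of 0.93 in cells of 2500 to 4000 UMIs), Cdca7 at 74.2 and 20.1 CPM, and the flap endonuclease Fen1 at 44.3 and 15.4 CPM. Of 49 G2 and mitosis genes, 45 had a positive difference, against 64.1% of all genes. Only 1, the tubulin Tubb4b at 304 and 125 CPM, was at least 2-fold higher, against 5.73% of all genes. The median was 0.43, or 0.23 under TMM scaling and 0.19 in cells with a Mki67 or Top2a UMI. The Tubb4b difference was 0.90 in cells of 2500 to 4000 UMIs and 0.24 in cells lacking both Mki67 and Top2a UMIs, and in both settings none of the list was 2-fold higher. Of 21 histone genes, 3 were at least 2-fold higher, against 5.73% of all genes, including Hist1h2ap at 876 and 395 CPM, and the list median was 0.50. In cells lacking both Mki67 and Top2a UMIs the histone median was on the other side of 0, at -0.45 over the 9 genes still compared, and the Hist1h2ap difference was 0.13. In cells of 2500 to 4000 UMIs the histone median was 0.14, with 1 gene higher and 1 lower, and the Hist1h2ap difference was 0.38. Under TMM scaling it was 0.96. The cell cycle regulators were split. The D-type cyclin Ccnd2 (655 and 321 CPM) and its kinase Cdk6 (370 and 171 CPM) were higher, while the inhibitor Cdkn1b, or p27, was lower (79.8 and 203 CPM), as was Ccng2, a cyclin of resting cells (34.8 and 89.6 CPM). Under TMM scaling Ccnd2 and Cdk6 were no longer 2-fold higher.

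Cycling cells, defined by a Mki67 or Top2a UMI at 2000 UMIs per cell, were 60.1% (58.7 to 61.5) of 4780 IL-2v cells and 47.6% (45.8 to 49.5) of 2857 IL-2 cells. The difference was 12.4 percentage points. With cycling defined as at least 3 UMIs of the G2 and mitosis list, the shares were 75.9% and 70.8%, a difference of 5.01 points. Without thinning the shares were 66.7% and 50.4%, and 299 IL-2v and 394 IL-2 cells were too shallow for the thinned count. On the same day the share was 7.96% without cytokine, 19.9% with 50 IU/mL IL-15, 34.6% in the 5 IU/mL IL-2v library and 12.3% in that with 5 IU/mL IL-2. Both libraries therefore held more cycling cells than the other day 5 libraries, and the share with IL-2v was above that with IL-2 at both doses.

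**Figure D3:**
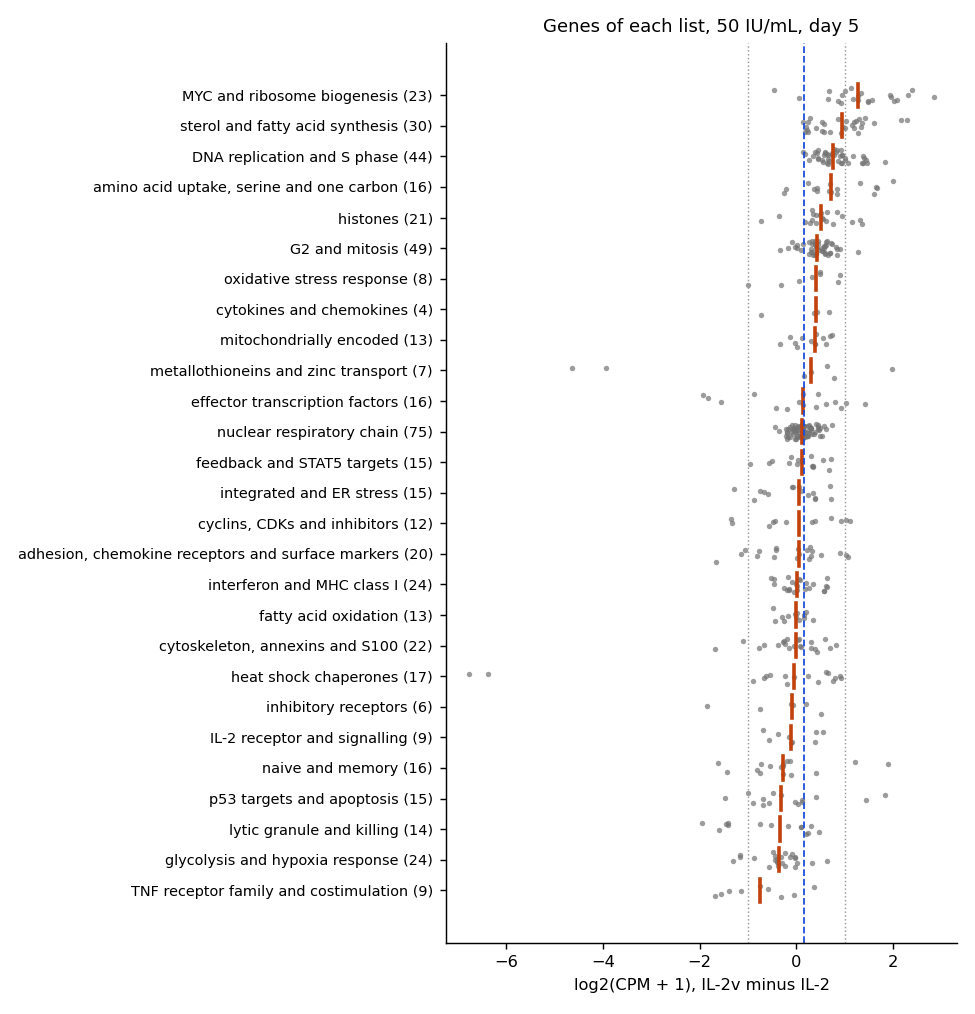
Log2 difference (IL-2v minus IL-2, horizontal axis) of each compared gene in the 27 gene lists, with the number of genes compared in brackets; orange bars are list medians, the dashed line is the median of all compared genes (0.16) and dotted lines mark a 2-fold difference. Ribosome biogenesis has the highest median (1.28) and TNF receptors with costimulation the lowest (-0.76).

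The 4 lowest differences belonged to metallothionein and Hsp70 genes. Mt1 and Mt2 encode metallothioneins, small proteins that bind zinc and copper. Mt1 had 1057 UMIs or 49.1 CPM (46.2 to 52.2) in IL-2v cells, but 8058 UMIs or 761 CPM (744 to 778) in IL-2 cells, a difference of -3.93. Mt2 was at 10.6 CPM (9.31 to 12.1) in IL-2v cells against 288 CPM (278 to 298) in IL-2 cells, 27.1-fold higher with IL-2. Thinned cells with an Mt1 UMI were 7.07% with IL-2v and 54.9% with IL-2, and 8.34% with 50 IU/mL IL-15. Slc39a10, a zinc importer of the plasma membrane, went the other way, at 51.4 CPM with IL-2v and 12.3 CPM with IL-2. Of the 7 genes compared in the metallothionein and zinc transport list, 2 were at least 2-fold lower and 1 higher, against 2.07% and 5.73% of all genes.

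Hspa1a and Hspa1b, which encode the stress-inducible Hsp70, had the lowest differences of all. Hspa1a had 4 UMIs or 0.186 CPM (0.0506 to 0.476) in IL-2v cells, but 1360 UMIs or 128 CPM (122 to 135) in IL-2 cells, a difference of -6.77. Hspa1b had 6 UMIs or 0.279 CPM (0.102 to 0.607) and 1109 UMIs or 105 CPM (98.6 to 111). In the remaining libraries Hspa1a was at 65.8 CPM with 50 IU/mL IL-2 on day 3 and at most 1.28 CPM elsewhere. The 2 genes share 58.8% of the 50-base windows of the Hspa1a transcript, so reads may have been split between them or dropped, and their separate values are uncertain. Of 17 heat shock chaperones compared, these 2 were at least 2-fold lower, against 2.07% of all genes, none was higher, and the median was -0.04. Leaving out every cell with a Hspa1a or Hspa1b UMI takes these 2 genes out of the list by definition, so the loss of both lower calls is no result. The 15 genes left had a median of 0.34, with 1 higher and 0 lower. Part of that rise in the median comes from losing the 2 lowest members. Dnajb1, an Hsp40 cochaperone, was at 37.4 and 70.1 CPM, a difference of -0.89 that passed 2-fold under TMM scaling (-1.07) and in cells of 2500 to 4000 UMIs (-1.07), and that was -0.51 in cells without a Hspa1a or Hspa1b UMI. Hspd1, the mitochondrial Hsp60, was at 248 and 160 CPM. Hspb1, a small heat shock protein left out by the 20 CPM limit, was also lower with IL-2v, at 0.325 (0.131 to 0.670) and 12.5 CPM (10.4 to 14.8).

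The sequence upstream of these 4 genes is shown so that its letters can be read beside the values. As background, MTF1 is known to act on metallothionein genes and HSF1 on Hsp70 genes, and the matches are letters only. Each stretch is the 150 bases before the start annotated by RefSeq on GRCm38.p6, written 5′ to 3′ on the gene's strand. Capitals mark matches on either strand to TGCACNC or TGCGCNC, the core of the metal response element bound by MTF1, for Mt1 and Mt2. For Hspa1a and Hspa1b they mark matches to GAANNTTC or TTCNNGAA, a pair of the units bound by HSF1.
Mt1, chr8:94178939-94179088, plus strand: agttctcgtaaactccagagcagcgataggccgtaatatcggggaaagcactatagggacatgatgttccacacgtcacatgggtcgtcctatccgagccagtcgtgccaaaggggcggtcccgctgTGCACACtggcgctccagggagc
Mt2, chr8:94172468-94172617, plus strand: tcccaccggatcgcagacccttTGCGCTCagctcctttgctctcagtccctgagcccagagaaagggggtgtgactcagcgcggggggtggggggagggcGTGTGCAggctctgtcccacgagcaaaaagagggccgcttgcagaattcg
Hspa1a, chr17:34972157-34972306, minus strand: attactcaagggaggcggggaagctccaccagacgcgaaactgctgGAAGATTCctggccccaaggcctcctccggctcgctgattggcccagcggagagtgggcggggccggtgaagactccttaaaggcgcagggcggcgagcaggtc
Hspa1b, chr17:34959239-34959388, minus strand: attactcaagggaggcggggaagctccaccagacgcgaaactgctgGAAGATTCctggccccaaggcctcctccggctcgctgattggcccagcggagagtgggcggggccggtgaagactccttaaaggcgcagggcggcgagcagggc

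Within the 250 bases before the start, Mt1 held 1 match to the metal response core, 23 bases before the start, and Mt2 held 3, at 223, 128 and 50 bases before it. Of 32851 promoters of that length, 21.4% held 1 or more such matches and 1.26% held 3 or more. Hspa1a and Hspa1b each held the heat shock pair 104 bases before the start, as did 12.8% of all promoters somewhere in their 250 bases. Their upstream stretches differ at 1 of the 150 bases shown. The E-box CACGTG is a sequence bound by MYC with MAX. Of the 26 ribosome biogenesis genes, 20 had a promoter entry, and 1 of these 20 genes held it. Of all promoter entries 6.02% held it, a share of entries and not of genes. These matches are letters in a window and no measurement of binding. Bases after the annotated start were not searched, so these are not counts for a whole promoter.

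UMIs of the Hsp70 genes were found in a minority of the IL-2 cells. At this depth a cell with no such UMI is not shown to lack the transcript. A UMI of Hspa1a or Hspa1b was found in 445 of 3251 IL-2 cells (13.7%, 12.5 to 14.9) and in 10 of 5079 IL-2v cells (0.197%, 0.0945 to 0.362). Among IL-2 cells, those with such a UMI had a median depth of 2956 UMIs and those without 3024. The positive cells had more of the heat shock list (11472 against 6272 CPM), of which Hspa1a and Hspa1b, the genes that chose the cells, made up 946 and 772 CPM. They had less of the mitochondrially encoded genes (21917 against 30196 CPM). They also had more Mt1 (966 against 729 CPM), Fosl2 (166 against 109 CPM) and Tnfaip3 (101 against 62.7 CPM), and less Nop56 (32.0 against 57.1 CPM). Those 4 genes went the way the IL-2 library differed from the IL-2v library, but others did not. Il7r was lower in the positive cells (120 against 166 CPM) and Mki67 higher (495 against 420 CPM). Their G2 and mitosis list (7295 against 6356 CPM) and ribosome biogenesis list (4738 against 4545 CPM) were higher too. Leaving out every cell with a UMI of either gene left 317 genes at least 2-fold higher and 124 lower, of which 310 and 115 were among the original calls. Without those cells the difference was 2.77 for Nolc1, 2.02 for Fasn, -3.86 for Mt1 and -1.52 for Tnfrsf4.

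Others of the 12 lowest genes act in transcription and signalling. Mxi1, which pairs with MAX in place of MYC and represses its targets, was at 23.2 CPM (21.2 to 25.4) in IL-2v cells but 131 CPM (124 to 138) in IL-2 cells, the highest level in the series. A Mxi1 UMI was found in 4.62% and 22.7% of thinned cells. Tnfaip3, or A20, a brake on NF-kappaB, was at 14.0 and 67.9 CPM. Rgs1, which shortens G protein signals, was at 21.2 and 96.8 CPM, and Pde4d, which degrades cyclic AMP, at 15.7 and 69.9 CPM. Fosl2, an AP-1 subunit, was at 26.5 and 117 CPM. For each of these 4 genes the IL-2 library was again the highest of the 21. Further genes were chosen because of their values, and their direction is no result. Btg1 was at 284 and 702 CPM, Hbp1 at 14.1 and 50.1, Foxo3 at 20.3 and 45.8, Pik3ip1 (an inhibitor of PI3K) at 47.8 and 106, and Tsc22d3 (GILZ) at 50.1 and 117. Among cells of 2500 to 4000 UMIs, Foxo3 (-0.98), Tsc22d3 (-0.84) and Pik3ip1 (-0.73) were within 2-fold. Of the other MAX partners, Mxd4 was at 41.3 and 90.4 CPM (-0.67 in the cells of 2500 to 4000 UMIs), Mxd3 at 34.3 and 15.5 (0.92 under TMM scaling and 0.79 in cells with a Mki67 or Top2a UMI), and Max itself at 49.0 and 50.0.

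Of 9 members of the TNF receptor family and costimulation list compared, 4 were at least 2-fold lower, against 2.07% of all genes, and none was higher, with a median of -0.76 (-0.94 under TMM scaling). Tnfrsf4, or OX40, stood at 58.1 CPM (55.0 to 61.4) in IL-2v cells against 172 CPM (164 to 180) in IL-2 cells, and 9.85% and 22.8% of thinned cells had a UMI of it. Icos was at 45.9 and 122 CPM, Cd28 at 123 and 273 CPM, and Tnfrsf26, another member of the TNF receptor family, at 13.5 and 45.1 CPM. Tnfrsf18, or GITR, and Tnfrsf9, or 4-1BB, were within 2-fold, at 282 and 477 CPM and at 466 and 582 CPM. The inhibitory receptor Ctla4 stood at 129 CPM (124 to 134) in IL-2v cells against 465 CPM (452 to 478) in IL-2 cells. A Ctla4 UMI was found in 21.7% and 52.1% of thinned cells. Ctla4 was the only 1 of the 6 inhibitory receptors compared to pass 2-fold, against 2.07% of all genes lower and 5.73% higher. Lag3 was at 82.8 and 72.0 CPM. Pdcd1, Havcr2 and Tigit were below 20 CPM in both.

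Killing genes did not move together. Gzmb, or granzyme B, gave 1938 CPM (1920 to 1957) in IL-2v cells and 1689 CPM (1665 to 1714) in IL-2 cells, and was seen in 90.3% and 88.4% of thinned cells. Prf1, or perforin, was at 33.1 and 23.6 CPM, and Nkg7 at 657 and 530 CPM. Of 14 genes of the lytic list compared, 5 were at least 2-fold lower with IL-2v, against 2.07% of all genes, and none higher, with a median of -0.34. Granzyme A (Gzma) was at 41.0 CPM (38.4 to 43.8) and 160 CPM (153 to 168). The other 4 were protease inhibitors: Serpinb1a at 32.9 and 101 CPM, Serpinb6b at 92.1 and 252, Ctla2a at 707 and 1874, and its relative Ctla2b at 73.7 and 197. Of 18 cytokine and chemokine genes only 4 reached 20 CPM. None of these passed 2-fold, against 5.73% of all genes higher and 2.07% lower, so so short a list did not stand out. With totals that left out ribosomal protein and mitochondrial genes, 1 of 5 was at least 2-fold lower. Summed with its members below 20 CPM, the list was at 464 CPM with IL-2v, the lowest of the 21 libraries, and 631 CPM with IL-2.

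Of 16 naive and memory markers compared, 13 had a negative difference, against 35.9% of all genes. The median was -0.28, or -0.02 in cells of 2500 to 4000 UMIs, where 7 of 17 had a positive difference. Of these 16, 2 were at least 2-fold higher and 2 lower, against 5.73% and 2.07% of all genes. Dapl1, a gene of naive and early memory T cells, was at 73.6 CPM with IL-2v and 18.9 CPM with IL-2. Il7r, the receptor for the survival factor IL-7, was at 51.5 and 159 CPM, and Ccr7, the chemokine receptor for lymph node entry, at 54.6 and 149 CPM. Tcf7, a transcription factor of memory and stem-like T cells, was at 57.0 and 69.5 CPM. Of 16 effector transcription factors compared, 2 were at least 2-fold higher and 3 lower, against 5.73% and 2.07% of all genes, with a median of 0.14. Under TMM scaling 1 of 15 was higher and 4 were lower. Id2 (429 and 210 CPM, 0.84 under TMM scaling) and Zbtb32 (117 and 42.9 CPM) were higher. Ikzf2 (30.8 and 111 CPM), Rora (5.72 and 24.6 CPM) and Batf3 (6.88 and 22.2 CPM) were lower. Prdm1, which encodes Blimp-1, was at 42.9 and 38.7 CPM. Bst1, the ectoenzyme CD157, was at 4.14 and 20.4 CPM.

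Of 24 glycolysis and hypoxia genes compared, 21 had a negative difference, against 35.9% of all genes. At least 2-fold lower were 3, against 2.07% of all genes. The median was -0.35, or -0.53 under TMM scaling. The 3 were the glucose transporter Slc2a3 at 182 and 455 CPM, Bnip3 at 254 and 568 CPM and Ero1l at 350 and 782 CPM. The enzymes Pgk1 and Ldha were near equal, at 2775 and 2820 CPM and at 1712 and 1807 CPM. The summed level was 19048 CPM with IL-2v and 22547 CPM with IL-2, the highest of the 21 libraries. Ndrg1 and Ak4, further genes of the hypoxia response chosen after their values were seen, were at 77.9 and 254 CPM and at 11.8 and 45.2 CPM.

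Of 15 p53 target and apoptosis genes compared, 4 passed 2-fold, 2 in each direction, against 5.73% of all genes higher and 2.07% lower, and the median was -0.31. Under TMM scaling 2 of 16 were higher and 3 lower, with a median of -0.58. Bcl2l11, or Bim, and Bbc3, or Puma, which promote apoptosis, were at 81.5 and 229 CPM and at 58.9 and 119 CPM. Bbc3 was just past 2-fold, and its difference was -0.62 among cells of 2500 to 4000 UMIs. Aen, a p53-induced nuclease, and Bid, another promoter of apoptosis, were at 36.8 and 9.54 CPM and at 21.6 and 7.27 CPM. The survival gene Bcl2 was at 663 and 449 CPM and Mcl1 at 100.2 and 148 CPM, both within 2-fold.

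None of the 9 receptor and signalling genes and none of the 15 STAT5 target and feedback genes compared passed 2-fold, against 5.73% of all genes higher and 2.07% lower, so these short lists did not stand out from that share. Their medians were -0.11 and 0.11, and -0.30 and -0.11 under TMM scaling. The lowest of the targets was the phosphatase Dusp5 at 41.2 and 81.2 CPM, a difference of -0.96 that was past 2-fold under TMM scaling (-1.15). Il2ra gave 430 CPM (421 to 439) in IL-2v cells and 330 CPM (319 to 341) in IL-2 cells, Il2rb at 551 and 374 CPM, and Il2rg at 180 and 195 CPM. Cish, a STAT5-induced inhibitor of the receptor, was at 121 and 97.3 CPM, against 10.7 CPM without cytokine. Socs1 was at 111 and 109 CPM, Socs2 at 115 and 91.7 CPM, and Pim1 at 421 and 330 CPM. The differences of Il2ra and Il2rb were 0.38 and 0.56, or 0.19 and 0.37 under TMM scaling, all within 2-fold. Intervals here cover counting error only. The spread between cultures is not known. No member of the fatty acid oxidation (13 genes), nuclear respiratory chain (75), mitochondrially encoded (13), oxidative stress (8) or interferon and MHC class I (24) lists passed 2-fold either. Sqstm1, of the oxidative stress list, was nearest at 73.7 and 147 CPM and passed under TMM scaling, where 1 of the 8 was lower.

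**Figure D4:**
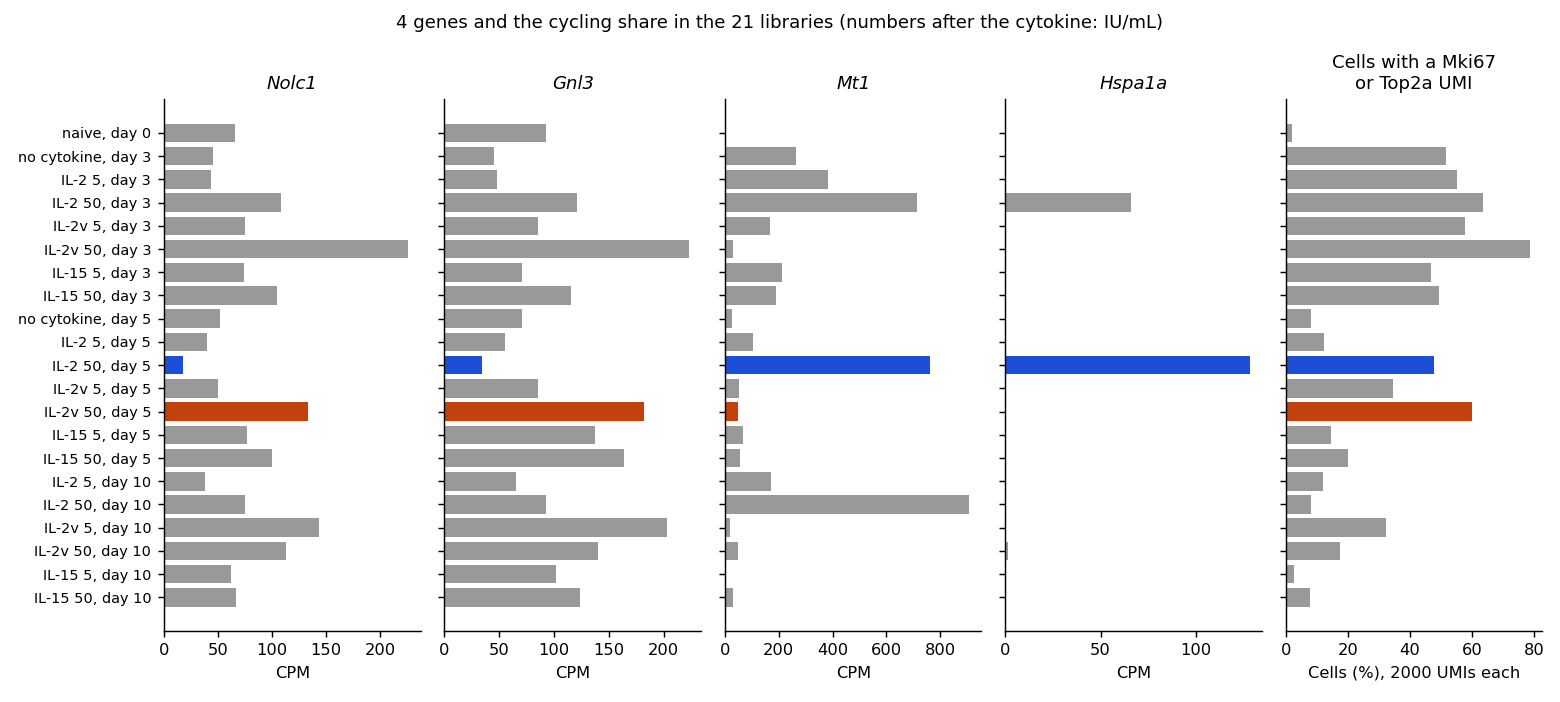
CPM of Nolc1, Gnl3, Mt1 and Hspa1a and the percent of thinned cells with a Mki67 or Top2a UMI in the 21 libraries, 1 bar each, with IL-2v at 50 IU/mL on day 5 in orange and IL-2 in blue. For Nolc1 and Gnl3 the IL-2 bar is the lowest of all, and for Hspa1a it is the highest (128 CPM).

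The genes that differed were also placed among all 21 libraries. For 159 of the 357 higher genes (44.5%) the IL-2 library was the lowest of all 21, against 9.46% of all compared genes. The IL-2v library was the highest of the 21 for 45 of them (12.6%, against 9.84%). Of the 129 lower genes, the IL-2 library was the highest of the 21 for 73 (56.6%, against 10.5%) and the IL-2v library the lowest for 3 (2.33%, against 0.71%). Choosing genes by their difference raises these shares, so they describe the libraries and test nothing. Against cells without cytokine on day 5, the 357 higher genes had a median of 1.05 with IL-2v and -0.32 with IL-2, and with IL-2 52 of them were at least 2-fold above that level, 60 below and 245 between. Against 50 IU/mL IL-15 the medians were 0.44 and -0.83. For the 129 lower genes the medians against no cytokine were 0.00 with IL-2v and 1.35 with IL-2, and against IL-15 0.05 and 1.43. When IL-15 was the reference, the median was nearer to 0 with IL-2v than with IL-2 in each direction. Against no cytokine that held for the lower genes only, and the higher genes were nearer to 0 with IL-2. These values share a reference library and are given side by side only.

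The same comparison was made in 3 of the 5 other pairs of an IL-2v and an IL-2 library at equal day and dose, which share no library with this one. The 5 IU/mL pairs of days 3 and 10 were not compared here. At 50 IU/mL, 75 of 6152 genes (1.22%) were at least 2-fold higher with IL-2v and 129 (2.1%) lower on day 3. On day 10, 145 of 5227 (2.77%) were higher and 113 (2.16%) lower. At 5 IU/mL on day 5, 414 of 5676 (7.29%) were higher and 58 (1.02%) lower. Of the 357 higher genes of day 5 at 50 IU/mL, 29 were also called on day 3 (8.12% of these and 38.7% of that day's list). On day 10 it was 16 (4.48% and 11.03%) and at 5 IU/mL 52 (14.6% and 12.6%). Of the 129 lower genes, 53 were also called lower on day 3 (41.1% of each list), 22 on day 10 (17.1% and 19.5%) and 14 at 5 IU/mL (10.9% and 24.1%), while 15 were at least 2-fold higher at 5 IU/mL. Of the 357 higher genes, 355 had a positive difference on day 3, 302 on day 10 and 314 at 5 IU/mL, against 54.8%, 60.9% and 72.2% of all 6227 genes. Of the 129 lower genes, 125 had a negative difference on day 3, 68 on day 10 and 73 at 5 IU/mL, against 45.2%, 39.1% and 27.8%.

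Nolc1 was higher with IL-2v in these 3 pairs, at 226 and 109 CPM on day 3, 113 and 75.5 on day 10, and 50.1 and 40.3 at 5 IU/mL. The median of the ribosome biogenesis list was 0.60 on day 3, 0.36 on day 10 and 0.47 at 5 IU/mL, with 1, 1 and 2 genes at least 2-fold higher, against 1.22%, 2.77% and 7.29% of all genes. Mt1 was lower with IL-2v in the same 3, at 31.1 and 714 CPM on day 3, 50.2 and 908 on day 10, and 54.0 and 104 at 5 IU/mL. Tnfrsf4 was at 114 and 499 CPM on day 3 and 3.59 and 17.7 on day 10, but 15.2 and 8.48 at 5 IU/mL. Ctla4 was lower with IL-2v in all 3, at 147 and 552, 33.6 and 58.7, and 108 and 277 CPM. Mxi1 was at 16.4 and 76.1 CPM on day 3 but at 53.9 and 23.2 at 5 IU/mL.

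**Figure D5:**
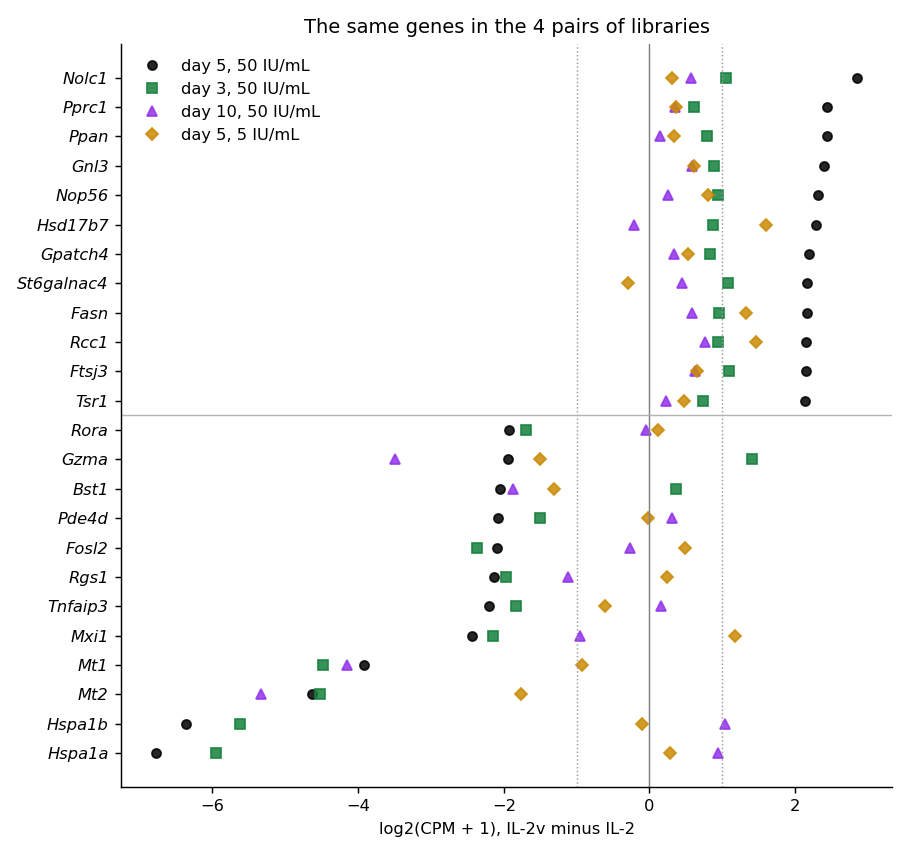
Log2 difference (IL-2v minus IL-2, horizontal axis) of the 24 named genes in the pair at day 5 and 50 IU/mL (black circles) and in the 3 other pairs. The 12 higher genes lie above 0 on day 3 as well, 3 of them past 2-fold, and Mxi1 is on opposite sides of 0 at the 2 doses of day 5.

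The sterol and glycolysis lists stood differently in the 5 IU/mL pair, without a test of that difference. Sterol and fatty acid genes had a median of 0.21 on day 3 and 0.15 on day 10, with no gene past 2-fold, but 1.68 at 5 IU/mL with 26 of 29 higher, against 7.29% of all genes. The median over all genes was 0.05 on day 3, 0.06 on day 10 and 0.20 at 5 IU/mL. Glycolysis and hypoxia genes, lower with IL-2v at 50 IU/mL on each day (medians -0.87, -0.35 and -0.41), had a median of 1.71 at 5 IU/mL, with 20 of 24 at least 2-fold higher, again against 7.29%. Replication genes had positive medians in these 3 pairs, 0.46 on day 3, 1.14 on day 10 and 1.30 at 5 IU/mL. Costimulation genes had a median of -1.12 on day 3, with 5 of 9 at least 2-fold lower against 2.1% of all genes. It was -0.24 on day 10, with 2 of 8 higher and 2 lower (2.77% and 2.16% of all genes), and -0.06 at 5 IU/mL. The cycling share was higher with IL-2v in all 3 pairs, at 78.7% and 63.5% on day 3, 17.6% and 8.23% on day 10, and 34.6% and 12.3% at 5 IU/mL. Whether the differences between pairs exceed the spread between cultures was not tested, since each pair is 1 library against 1.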

How the data were processed

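Raw UMI counts per gene symbol and cell barcode were deposited by the authors, 1 table per library, and each value is a whole number. The submitters' processing notes name Cell Ranger, Seurat 4.0.1 and 3.0.2 and the mm10 build. Their roles, the annotation, any doublet removal and cell filters are not given in the sources used here, and no doublet caller was run. Groups came from the titles and the design text.

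All cells of each table were used. Counts were summed per library and scaled to CPM, and a pseudocount of 1 CPM was added before log2. Genes at 20 CPM or more in either library were compared, and those with a log2 difference of 1 or more, or -1 or less, were counted. With 1 library per condition no model was fitted. CPM values have exact Poisson and shares exact Clopper-Pearson 95% intervals. For shares and per-cell sums, cells were thinned at random to 2000 UMIs. The genes named were the 12 highest and 12 lowest and members of 27 lists, unless said to be chosen later. Some members of the lists are not reported here, but the counts include them. The lists, genes and limits were chosen with earlier results of these data known. Overlaps come from GENCODE vM21 and promoters from RefSeq (GRCm38.p6). The scaling, log2 differences and 2-fold calls were tested on simulated library totals, and the thinning on cells of the IL-2 library. Python 3.11.15, numpy 2.4.6, scipy 1.17.1, pandas 2.3.3 and edgeR 4.0.16 (TMM) in R 4.3.3 were used.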

Additional observations from a re-analysis of the deposited data

Results flagged for a closer look

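Several of the genes named moved at least 2-fold one way at day 5 and 50 IU/mL and at least 2-fold the other way in another pair of libraries. All differences are log2(CPM + 1), IL-2v minus IL-2. At 5 IU/mL on day 5, 4 genes of the hypoxia response were higher with IL-2v and at 50 IU/mL they were lower: Ak4 was at 3.62 and -1.85, Bnip3 at 3.14 and -1.16, Ndrg1 at 2.79 and -1.69, and Ero1l at 2.20 and -1.16. Mxi1 was at 1.18 at 5 IU/mL and -2.44 at 50 IU/mL. Gzma was at 1.40 on day 3 and -1.94 on day 5, both at 50 IU/mL. With 1 library on each side the difference between these pairs was not tested.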

How the results depend on the processing

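With 1 library per condition no library could be left out. No paired analysis was possible because this comparison is 1 library against 1, and the pairs at other days and doses are not replicates of it. The counts of 357 higher and 129 lower genes became 206 and 204 under TMM scaling, 151 and 72 with a pseudocount of 10 CPM, 768 and 229 with no expression filter, and 67 and 57 among genes at 100 CPM or more. The last 3 change the scale or the genes compared. The cause of the shift under TMM was not tested. Under every other setting tried the counts stayed within 1.5 times: 317 to 392 higher and 124 to 179 lower. These included cells of 2500 to 4000 UMIs (353 and 127) and cells without a Hspa1a or Hspa1b UMI (317 and 124), both settings chosen after seeing the data. The cycling difference of 12.4 points was 16.3 without thinning, 5.01 with at least 3 UMIs of the G2 and mitosis list as the rule, and 11.02 to 13.7 under the other settings. The histone median of 0.50 over 21 genes became -0.45 over the 9 still compared in cells lacking both Mki67 and Top2a UMIs. Of the 83 named genes past 2-fold, TMM scaling kept 77, cells of 2500 to 4000 UMIs 70 of the 79 still compared, and cells without a Mki67 or Top2a UMI 67 of 75. None of them changed sign. Depth limits the IL-2 library more: its total of 10590998 UMIs sets wider intervals than the 21520466 UMIs of the IL-2v library.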
